A study of Mus musculus with 8 samples.

Results

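The matrix proteases and their inhibitors were read as the protein-coding genes on chromosomes 1 to 19 whose symbol starts with Mmp, Timp, Adamts or Adamtsl in the GENCODE annotation of mm10. The rule took 49 of 20807 protein-coding genes, which were 22 Mmp, 3 Timp, 19 Adamts and 5 Adamtsl genes. Timp1, which is on the X chromosome, and Mmp1a, which is annotated as a polymorphic pseudogene, were outside the rule. The rule reads symbols and positions only.

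The peaks came from ChIC-Seq (chromatin immunocleavage sequencing), in which an antibody brings micrococcal nuclease to a chromatin protein and the nuclease releases the DNA beside it. Primary uterine stromal cells were isolated on D4 from WT pseudopregnant mice aged 8 to 12 weeks, with 5 to 10 uterine horns digested together, and were plated for 4 h and a further 2 h before 50000 fixed cells entered each library. There were 3 replicates with an antibody against PBRM1 and 3 with an antibody against BRG1, each with its own peak list, and 1 pooled list for each antibody, which made 8 lists. All groups were WT cells of the same day, so the comparisons are between antibodies and between genes, and 2 IgG libraries were not analysed here. The study calls the libraries biological replicates, and the labels do not say whether they came from separate pools of horns, so p-values measure only the spread between these libraries.

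MMPs are zinc-dependent endopeptidases that are made as inactive precursors and, once activated, cut collagens, gelatin, laminin and other matrix proteins. TIMPs bind the active site of MMPs and block it, and TIMP3 also inhibits several ADAMTS enzymes. ADAMTS proteases carry thrombospondin motifs and cut proteoglycans, procollagens, COMP or von Willebrand factor, whereas ADAMTS-like proteins share these motifs but have no protease domain. In the uterus the balance of these enzymes and inhibitors is known for its place in the remodelling of the stromal matrix around implantation. PBRM1 is the defining subunit of the PBAF form of the SWI/SNF chromatin remodelling complex, and BRG1 is an ATPase of SWI/SNF complexes, PBAF included.

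The promoters differed in their DNA, and the upstream sequence of members from both ends of the range of replicate support is shown first. RefSeq promoter windows on GRCm38.p6, from 250 bases before to 50 after the start, were given for 34 of the 49 members and 15703 of the 20807 genes. Each line below holds the last 100 bases before the start, read 5′ to 3′ along the gene. Capitals mark TGANTCA, the AP-1 motif (its own reverse complement), TATAAA or TTTATA on the other strand, and GGGCGG or CCGCCC on the other strand, which is the GC box. The forms of TATAAA on opposite strands can overlap, and a promoter was counted once. The first 4 genes lie in the Mmp cluster of chromosome 9 and had no promoter peak in any replicate list.
Mmp13, chr9:7272414-7272513, plus strand: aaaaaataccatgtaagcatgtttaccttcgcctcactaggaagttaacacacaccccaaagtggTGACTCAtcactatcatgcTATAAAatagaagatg
Mmp3, chr9:7445722-7445821, plus strand: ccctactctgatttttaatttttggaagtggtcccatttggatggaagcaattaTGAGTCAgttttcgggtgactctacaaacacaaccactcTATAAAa
Mmp10, chr9:7502242-7502341, plus strand: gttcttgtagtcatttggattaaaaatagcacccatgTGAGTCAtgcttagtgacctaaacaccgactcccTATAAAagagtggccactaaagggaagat
Mmp7, chr9:7691990-7692089, plus strand: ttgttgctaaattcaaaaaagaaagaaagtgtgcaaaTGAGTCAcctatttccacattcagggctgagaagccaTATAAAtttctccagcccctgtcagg

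The next 4 genes had a promoter peak in all 6 replicate lists. Adamtsl2 and Adamtsl4 are shown because they stood in the top of the order of BRG1 promoter peaks, Adamts1 because it holds GC boxes beside a TATAAA, and Adamts2 because its introns held 3 sites present in all 6 replicates.
Adamtsl2, chr2:27079279-27079378, plus strand: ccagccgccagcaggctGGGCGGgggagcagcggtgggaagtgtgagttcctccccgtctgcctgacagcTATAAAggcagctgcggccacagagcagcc
Adamtsl4, chr3:95687918-95688017, minus strand: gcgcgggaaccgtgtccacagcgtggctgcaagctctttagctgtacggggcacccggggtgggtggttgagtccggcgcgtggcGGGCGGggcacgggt
Adamts1, chr16:85803114-85803213, minus strand: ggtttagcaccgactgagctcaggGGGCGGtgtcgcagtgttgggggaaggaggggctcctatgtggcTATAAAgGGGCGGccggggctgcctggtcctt
Adamts2, chr11:50601985-50602084, plus strand: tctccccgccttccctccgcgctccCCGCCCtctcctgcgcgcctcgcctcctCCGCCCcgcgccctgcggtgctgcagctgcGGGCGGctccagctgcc

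Over the full windows of 300 bases, TGANTCA was found in 6 of the 9 promoters of the chromosome 9 cluster and in 0 of the 25 other member promoters, against 7.02% of all promoters. TATAAA was found in 7 of the 9 cluster promoters and in 3 of the 25 others, against 12.9% of all promoters. GGGCGG was found in 0 of the 9 and in 20 of the 25, against 48.8% of all promoters. Among the 3739 promoters of genes with no promoter peak in any list, TGANTCA was found in 13.4%, TATAAA in 30.3% and GGGCGG in 7.68%. A match describes the letters and is not a bound site. Motifs and replicate support did not go together throughout. Adamts12 held no GGGCGG and had a promoter peak in all 6 replicates, whereas Mmp24 held it and had a promoter peak in 3. The 15 members with no window in the table were Adamts4, Adamts5, Adamts6, Adamts7, Adamts8, Adamts10, Adamts15, Adamts16, Adamts19, Adamtsl1, Mmp2, Mmp9, Mmp16, Mmp17 and Mmp19.

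The replicate libraries held between 8868777 and 16505239 fragments, with 21912 to 26363 peaks in the PBRM1 lists and 36656 to 40610 in the BRG1 lists. PBRM1 replicate 3 had the most fragments and the fewest peaks. Of the markers of uterine stroma, such as Vim, Pdgfra and Hoxa10, 12 of 12 had a promoter peak in all 3 BRG1 replicates and 8 of 12 in all 6 replicates. The same counts were 6 and 1 of 12 for epithelial markers, 1 and 0 of 12 for leukocyte markers, and 7 and 4 of 10 for endothelial markers. Over all protein-coding genes the shares were 62.9% in all 3 BRG1 and 53.5% in all 6 replicates. For lists of 10 or 12 genes, the endothelial counts, the stromal count in all 6 and the epithelial count in all 3 BRG1 replicates lay near these shares. A promoter peak is not a measure of expression, and the part of these other cell types in the results below was not tested.

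A promoter peak was a peak that overlapped the 2 kb on either side of a transcription start site (TSS) of the gene by at least 1 bp. The number of members with one was 35, 32 and 27 of 49 in the PBRM1 replicates and 37, 37 and 38 in the BRG1 replicates. The BRG1 lists were the higher and the tighter, and the groups did not overlap. The mean was 31.3 ± 4.04 members in the PBRM1 lists and 37.3 ± 0.577 in the BRG1 lists (SD, n = 3), a difference of -6 members. A two-sided exact permutation test gave p = 0.1, and 3 against 3 libraries cannot give less. With each list held to its 20000 peaks of lowest q-value the means were 27.7 and 29.0 members and the difference was -1.33 (exact permutation p = 0.8), so its size moved with the lengths of the lists. Without PBRM1 replicate 3 the difference was -3.83, and with peaks of a −log10 q of at least 5 it was -11.7.

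In the same lists, between 56.9% and 62.2% of all protein-coding genes had a promoter peak for PBRM1 and between 66.6% and 67.7% for BRG1. The share of members was 9.85, 3.06 and -1.85 percentage points from that background in the PBRM1 replicates and 7.86, 8.96 and 10.9 points above it in the BRG1 replicates. The PBRM1 values thus spread around the background and reached the BRG1 range in replicate 1. The difference between antibodies in this excess was -5.56 points, within the spread between replicates (exact permutation p = 0.3), and it was -1.37 points with 20000 peaks in each list and -2.80 without PBRM1 replicate 3. It was -14.8 points with peaks of a −log10 q of at least 5, where the PBRM1 mean was -10.4 points and the groups did not overlap (exact permutation p = 0.1), and -8.64 without PBRM1 replicate 1. With the TSSs of basic transcripts only it was -7.64 (exact permutation p = 0.1).

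**Figure D1:**
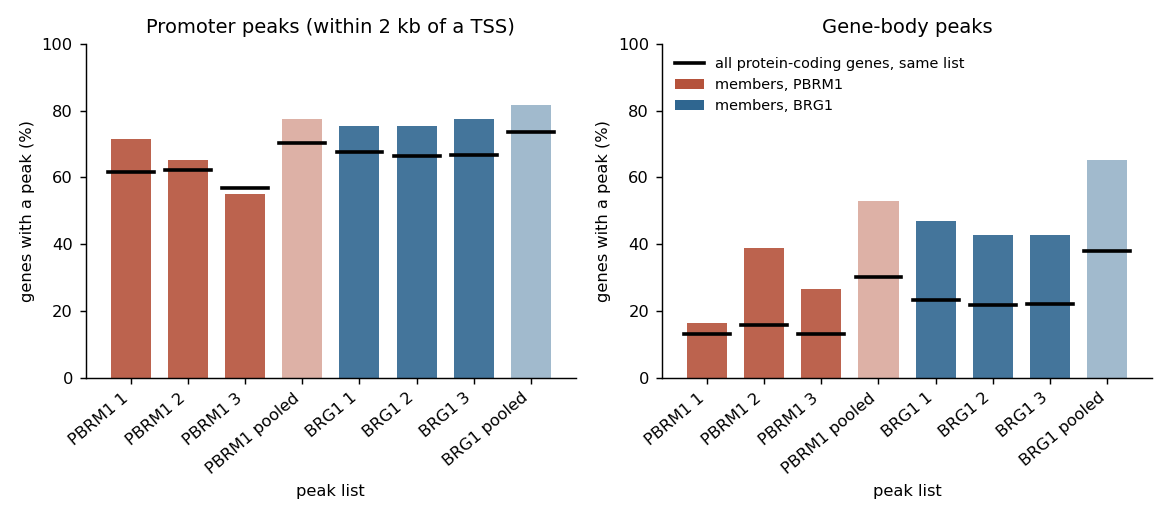
Share of genes with a promoter peak (left) or a gene-body peak (right) in each of the 8 lists, in percent. Bars are the 49 members, paler for the pooled lists, and black lines are all 20807 protein-coding genes in the same list. Promoter bars stood near their lines, from 55.1% of members in PBRM1 replicate 3 to 81.6% in the pooled BRG1 list, and gene-body bars stood above theirs in every list.

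Replicate support was counted over all members and by family. A promoter peak was present in all 3 PBRM1 replicates for 24 members (49.0%), where 53.8% of all protein-coding genes had one. It was present in all 3 BRG1 replicates for 35 members (71.4%), where 62.9% of all genes had one. It was present in all 6 replicates for 24 members, which is 49.0% of them, beside 53.5% of all genes, a share near the background. With peaks of a −log10 q of at least 5 only, 14 of the 49 members had one in all 6 replicates, beside 44.1% of all genes. It was present in none of the 8 lists for 8 members (16.3%), beside 24.8% of all genes. More BRG1 than PBRM1 replicates held a promoter peak for 16 members (32.7%), beside 15.3% of all genes. For 10 of these the counts were 3 BRG1 and 2 PBRM1 replicates. Adamts10, Adamts14, Adamtsl3, Mmp19, Mmp25, Timp3 and Timp4 lacked one in PBRM1 replicate 3 alone, the replicate list with the fewest peaks. More PBRM1 than BRG1 replicates held one for 0 members, beside 1.47% of all genes. The number of members with promoter peaks in all 3 BRG1 and 0 PBRM1 replicates was 0, beside 1.05% of all genes, and for all 3 PBRM1 and 0 BRG1 replicates it was also 0, beside 0.024%.

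The 24 members with a promoter peak in all 6 replicates were 12 of the 19 ADAMTS (63.2%) and 4 of the 5 ADAMTS-like proteins. The others were 7 of the 22 MMPs (31.8%) and 1 of the 3 TIMPs, beside 53.5% of all genes. The Mmp cluster of chromosome 9, which holds the 3 collagenases, gave 0 of 9, so these 7 MMPs all lay outside it. The family counts are small and were not tested against the share of all genes. Among the proteoglycan-cleaving ADAMTS, which include the aggrecanases, 6 of 7 were in this set (Adamts1, Adamts5, Adamts8, Adamts9, Adamts15 and Adamts20), and Adamts4 was not. Among the procollagen-processing ADAMTS, which remove the amino-terminal propeptides of fibrillar collagens, 2 of 3 were (Adamts2 and Adamts3), and of the COMP-cleaving ADAMTS both were (Adamts7 and Adamts12). The gelatinases gave 1 of 2 (Mmp2), the membrane-type MMPs 3 of 6 (Mmp15, Mmp16 and Mmp17), and the collagenases 0 of 3. Without PBRM1 replicate 3 the count was 31, with Adamts10, Adamts14, Adamtsl3, Mmp19, Mmp25, Timp3 and Timp4 added, and the share of all genes was 57.6%, so the members then stood above the background and not below it.

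**Figure D2:**
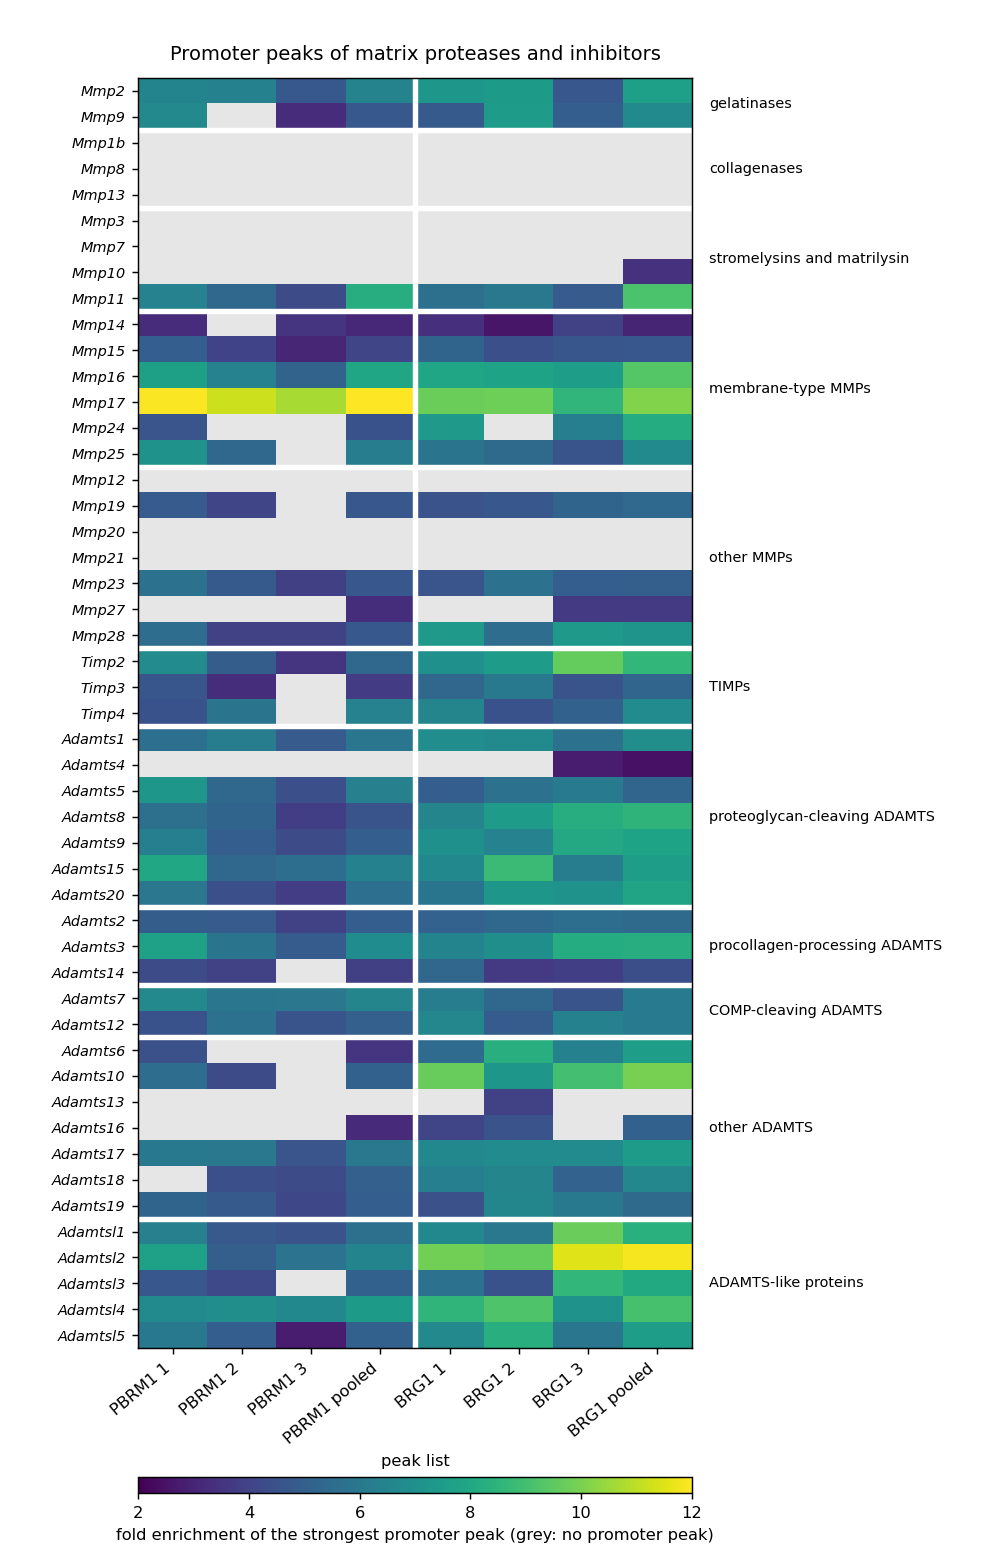
Fold enrichment of the strongest promoter peak of each of the 49 members (rows, by family) in each of the 8 lists (columns), with grey where no promoter peak was listed. Mmp17 was the brightest row in the PBRM1 lists, between 10.7 and 11.9 in the replicates, Adamtsl2 had the highest BRG1 mean, 10.3, and the collagenases were grey throughout.

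Member promoter peaks were weaker than those of other genes in all 8 lists. The promoter peak of lowest q-value of a member had a median fold enrichment over the local background of 5.96, 5.00 and 4.31 in the PBRM1 replicates, where the median over all genes with one was 7.55, 6.81 and 5.75. In the BRG1 replicates the medians were 6.51, 6.43 and 6.12 for members and 8.10, 8.16 and 8.25 for all genes. The CpG content of the promoters was set beside this. A promoter was called CpG-rich with an observed to expected CpG ratio of at least 0.6 and a GC content of at least 50%, as 17 of the 34 members with a window and 48.9% of all promoters were. Of the CpG-rich promoters, 11 of 17 member promoters (64.7%) and 85.2% of all had a peak in all 6 replicates. Of the CpG-poor promoters, 4 of 17 members (23.5%) and 27.6% of all had one, and 8 of 17 members (47.1%) and 45.4% of all had none in any list. The members without any promoter peak thus stood near the background of their CpG class. The lower share of the CpG-rich members was not seen without PBRM1 replicate 3, where 15 of 17 (88.2%) and 89.8% of all CpG-rich promoters had a peak in the other 5 replicates. For the CpG classes no other replicate was left out in turn. Of the 24 members with a peak in all 6 replicates 9 had no window, whereas all 8 members without a peak had one.

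**Figure D3:**
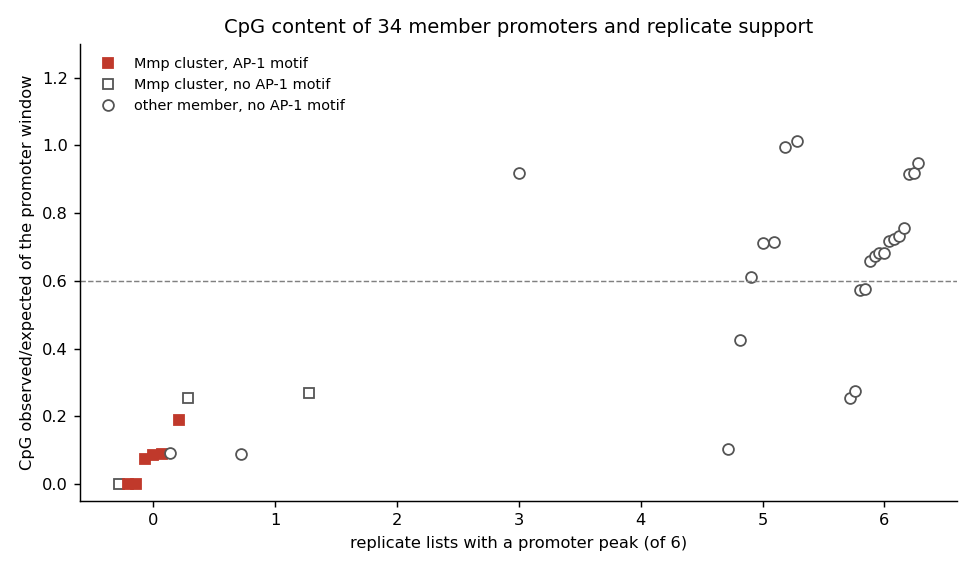
Observed to expected CpG ratio of 34 member promoter windows against the number of replicate lists with a promoter peak, with points spread sideways within a column. Squares are genes of the chromosome 9 cluster, filled red where TGANTCA was found, and the dashed line is at 0.6. The cluster sat at the lower left with 0 or 1 list, and the 15 members with 6 lists had a median ratio of 0.683.

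TIMPs. Timp2 (ENSMUSG00000017466.9, chr11:118301069-118355740) encodes the inhibitor that also takes part in the activation of pro-MMP2 at the cell surface. Its promoter site had fold enrichments of 6.81, 4.95 and 3.54 in the PBRM1 replicates and 7.01, 7.52 and 9.62 in the BRG1 replicates. The BRG1 values were all above the PBRM1 values, with means of 5.10 ± 1.64 and 8.05 ± 1.39 (SD, n = 3 each). Timp2 also held an intronic site 28.1 kb into the gene that was present in all 6 replicates, at 7.01, 6.71 and 5.38 for PBRM1 and 5.49, 6.13 and 5.95 for BRG1. At that site the antibodies overlapped. A further intronic site 6.6 kb into Timp2 was present in the 3 BRG1 replicates only, at 4.55, 3.81 and 3.85, and was listed for PBRM1 in the pooled list alone, at 2.85.

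Timp3 (ENSMUSG00000020044.13, chr10:86300372-86349506) encodes the matrix-bound inhibitor and lies inside Syn3 on the opposite strand. Its promoter site was listed at 4.66 and 3.33 in PBRM1 replicates 1 and 2, was not listed in replicate 3, and stood at 5.29, 6.04 and 4.61 for BRG1. An intronic site 10.3 kb into Timp3 was stronger than the promoter for BRG1, at 8.58, 8.05 and 5.16, and was listed in PBRM1 replicate 3 only, at 4.26. A second intronic site 39.6 kb into the gene had 6.55, 5.72 and 5.39 for BRG1, and 4.79 and 5.45 in PBRM1 replicates 2 and 3. These intronic sites were also inside Syn3, and which gene they belong to was not tested. Timp4 (ENSMUSG00000030317.8, chr6:115241892-115252205), which lies inside Syn2 on the opposite strand, had 1 promoter site, at 4.51 and 5.84 in PBRM1 replicates 1 and 2 and at 6.55, 4.53 and 5.11 for BRG1. So all 3 TIMP promoters were listed in every BRG1 replicate, and PBRM1 replicate 3 listed Timp2 alone.

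Gelatinases and membrane-type MMPs. Mmp2 encodes gelatinase A, the gelatinase typical of stromal cells, and its first promoter site stood at 6.52, 6.39 and 4.74 for PBRM1 and at 4.71, 7.46 and 4.71 for BRG1. The antibodies overlapped there (5.88 ± 0.992 and 5.62 ± 1.59, SD, n = 3 each). An intronic site 23.1 kb into Mmp2 had 8.79, 8.53 and 7.16 for BRG1, and 3.71 and 5.70 in PBRM1 replicates 1 and 3. Mmp9 encodes gelatinase B, which is best known from leukocytes and trophoblast, and its only promoter site in all 3 BRG1 replicates lay at -1919 bp from the 5′ end of the gene. That site had 4.85, 7.51 and 5.01 for BRG1, and 6.73 and 3.27 in PBRM1 replicates 1 and 3.

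Mmp14 encodes MT1-MMP, the membrane-anchored activator of pro-MMP2. Its promoter held 4 scattered weak sites, each listed in at most 1 PBRM1 and 2 BRG1 replicates, with fold enrichments of up to 3.99. In contrast, an intronic site 11.8 kb into the gene was present in all 6 replicates, at 4.67, 5.23 and 4.86 for PBRM1 and 5.45, 6.12 and 6.38 for BRG1. All BRG1 values there were above the PBRM1 values (4.92 ± 0.282 and 5.98 ± 0.478, SD, n = 3 each). Mmp17 encodes MT4-MMP, which is held to the membrane by a lipid anchor. Its promoter was the strongest of the members for PBRM1 and the only one with a higher rank percentile in every PBRM1 than in every BRG1 replicate, at 11.9, 11.2 and 10.7 for PBRM1 and 9.74, 9.79 and 8.58 for BRG1. Mmp16 encodes MT3-MMP and had 7.70, 6.44 and 5.19 for PBRM1 and 7.88, 7.81 and 7.55 for BRG1, values that overlapped.

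ADAMTS proteases and ADAMTS-like proteins. Adamts1, a proteoglycanase whose gene responds to progesterone in the ovary, had a promoter site at 5.63, 6.19 and 4.87 for PBRM1 and 6.90, 6.80 and 5.77 for BRG1, with overlap (5.57 ± 0.664 and 6.49 ± 0.627, SD, n = 3 each). Adamts5, an aggrecanase, had 7.27, 5.36 and 4.45 for PBRM1 and 3.39, 5.77 and 6.17 for BRG1 at its strongest PBRM1 promoter site. A second promoter site of Adamts5, 1.7 kb into the gene, had 4.25, 3.91 and 3.57 for PBRM1 and 4.99, 5.03 and 4.99 for BRG1, without overlap. Adamts15, another proteoglycanase, had 8.00, 5.37 and 5.61 for PBRM1 and 6.66, 8.81 and 6.22 for BRG1. Adamts7, which cuts COMP, had 6.69, 5.94 and 5.98 for PBRM1 and 6.25, 5.32 and 4.60 for BRG1. In both the antibodies overlapped.

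Adamtsl2, a secreted protein that binds fibrillin-rich microfibrils, had the highest mean BRG1 fold enrichment of the members at the promoter, with 9.87, 9.64 and 11.5, and PBRM1 values of 7.72, 5.02 and 5.82. The BRG1 mean was 10.3 ± 1.01 and the PBRM1 mean 6.19 ± 1.39 (SD, n = 3 each), without overlap, on scales that differ between libraries. Adamtsl4, a microfibril protein known from lens displacement, had 6.78, 6.94 and 6.67 for PBRM1, the tightest of the 24, and 8.55, 9.24 and 7.11 for BRG1. The promoter of Adamtsl1 had 6.35, 4.80 and 4.55 for PBRM1 and 6.69, 6.00 and 9.71 for BRG1.

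Fold enrichments of different libraries are not on 1 scale, so the antibodies were also compared by rank. As a percentile of its list by −log10 q, the promoter peak of 12 of the 24 members was higher in all 3 BRG1 than in all 3 PBRM1 replicates, beside 39.7% of the 11134 genes with a promoter peak in all 6 replicates. The reverse was seen for Mmp17 alone, beside 2.77% of these genes, and 11 members overlapped. The BRG1 lists are longer, and a longer list raises the percentile of the same position. Counted as a position from the strongest peak, 3 of the 24 members (Adamts9, Adamtsl2 and Timp2) were stronger in all BRG1 replicates, beside 12.8% of genes. In all PBRM1 replicates 4 of the 24 (Adamts5, Adamts7, Mmp16 and Mmp17) were stronger, beside 13.4%. Adamts9, Adamtsl2 and Timp2 for BRG1 and Mmp17 for PBRM1 kept their direction on both scales, and Mmp16 turned from BRG1 to PBRM1.

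The Mmp cluster of chromosome 9 was almost without peaks. It holds 9 members in 427 kb (chr9:7272514-7699585), Mmp13, Mmp12, Mmp1b, Mmp3, Mmp10, Mmp8, Mmp27, Mmp20 and Mmp7, which encode collagenases, stromelysins, macrophage elastase, enamelysin and matrilysin. Over this stretch the PBRM1 replicates listed 0, 0 and 1 peaks and the BRG1 replicates 1, 1 and 2. At the mean density over chromosomes 1 to 19, a stretch of this length held 3.90, 4.48 and 3.73 peaks in the PBRM1 lists and 6.91, 6.22 and 6.39 in the BRG1 lists. The 400 kb to the left of the cluster were also sparse, with 2, 2 and 2 peaks for PBRM1 and 2, 3 and 2 for BRG1. The 400 kb to the right held 7, 8 and 5 peaks for PBRM1 and 7, 7 and 7 for BRG1. The pooled lists had 2 peaks for PBRM1 and 5 for BRG1. No promoter peak was listed in any of the 8 lists for Mmp3, Mmp7, Mmp8, Mmp12, Mmp13, Mmp1b and Mmp20, nor, outside the cluster, for Mmp21 on chromosome 7. Mmp10 had a promoter peak in the pooled BRG1 list only, at 3.42, and Mmp27 in BRG1 replicate 3, at 3.71, and in both pooled lists. A missing peak says that no region passed the q-value cutoff of 0.05 at this depth.

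The 1 site of the cluster found in every BRG1 replicate lay between Mmp27 and Mmp20. It had fold enrichments of 11.7, 4.35 and 6.68 for BRG1, and for PBRM1 it was listed in replicate 3, at 4.34, and in the pooled list, at 4.65. The sites nearest to the cluster in the replicate lists were at least 50.7 kb away on the left and 38.1 kb on the right.

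**Figure D4:**
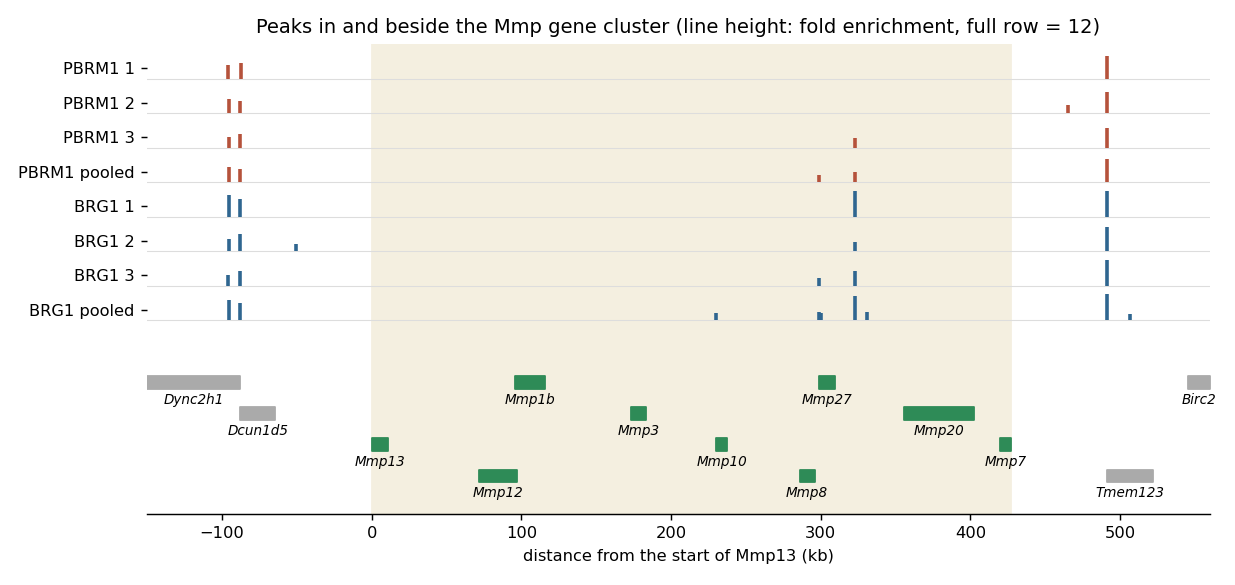
Peaks of the 8 lists in and beside the Mmp cluster of chromosome 9 (shaded, 427 kb), against the distance from the start of Mmp13 in kb. Line height is fold enrichment, green boxes are members and grey boxes other protein-coding genes. The site between Mmp27 and Mmp20 was the only one inside the shading in all 3 BRG1 replicates.

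A gene-body peak overlapped the gene and lay beyond 2 kb of every TSS of that gene. The number of members with one was 8, 19 and 13 in the PBRM1 replicates and 23, 21 and 21 in the BRG1 replicates. The BRG1 counts were all above the PBRM1 counts, and PBRM1 replicate 1 stood far below replicate 2. The means were 13.3 ± 5.51 and 21.7 ± 1.15 (SD, n = 3 each), a difference of -8.33, for which the exact permutation p was again 0.1. Without PBRM1 replicate 1 the difference was -5.67 and without PBRM1 replicate 2 it was -11.2. With 20000 peaks in each list the difference was -1.67 (exact permutation p = 0.8). The share of members with a gene-body peak was 16.3% to 38.8% for PBRM1 and 42.9% to 46.9% for BRG1. The share of all protein-coding genes with a gene-body peak was 13.0% to 15.8% for PBRM1 and 21.7% to 23.2% for BRG1. Members are longer, with a median of 26.1 kb against 17.6 kb for all genes. Per Mb of gene, the members held 2.98, 7.35 and 5.05 peaks in the PBRM1 replicates and all genes 4.26, 5.75 and 4.42. For BRG1 these densities were 14.0, 12.4 and 12.4 for members and 11.1, 9.40 and 9.80 for all genes.

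Gene-body peaks were present in all 3 PBRM1 replicates for 7 members (14.3%), beside 7.4% of all genes. They were present in all 3 BRG1 replicates for 17 members (34.7%), beside 14.7%, and in all 6 for 7 members (14.3%), beside 6.98%. Those 7 were Adamts2, Adamts17, Mmp2, Mmp14, Mmp25, Mmp28 and Timp2, and in Mmp2 no single gene-body site was present in all 6. In Mmp28 the only gene-body site listed in PBRM1 replicates was at its 3′ end, with a summit outside the gene and close to a TSS of 1700020L24Rik. Which gene that site belongs to was not tested. In none of the 8 lists a gene-body peak was present for 17 members (34.7%), beside 57.8% of all genes. Of the members, 18 (36.7%) had gene-body peaks in more BRG1 than PBRM1 replicates, beside 20.1% of all genes. In more PBRM1 than BRG1 replicates 1 member (2.04%) had them, beside 3.54%. By this count Mmp17 alone (2.04% of the members) had them in all 3 BRG1 and 0 PBRM1 replicates, beside 1.6% of all genes. The reverse was seen for 0 members, beside 0.00961%. The Mmp17 peaks were not at 1 site: the site 17996 bp into the gene was listed in 2 BRG1 replicates, and the site at 10175 bp in 2 BRG1 replicates and in PBRM1 replicate 2. The merged site at 10175 bp reached within 2 kb of a TSS of Mmp17, and the PBRM1 replicate 2 peak there counted as a promoter peak. The count of 0 PBRM1 replicates for Mmp17 thus rested on the edge of that window.

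The peaks of the 8 lists merged into 314 sites at the members, 105 at promoters and 209 in gene bodies. Of these, 37 were present in all 6 replicates (28 promoter and 9 gene-body sites) and 120 in no replicate list. All 37 sites present in the 3 PBRM1 replicates were also present in the 3 BRG1 replicates, whereas 66 sites were present in all 3 BRG1 replicates. The same held by gene over the background. Of the 11199 protein-coding genes with promoter peaks in all 3 PBRM1 replicates, 11134 had them in all 6, and for gene-body peaks 1453 of 1539 did. At the 37 shared sites the pooled summits of the antibodies lay a median of 26 bp apart, and within 200 bp at 34. This distance was not computed for other genes. Of the 178 pooled BRG1 gene-body peaks of members, 22 (12.4%) overlapped a peak in all 3 replicates and 80 (44.9%) in none, beside 10.7% and 47.2% for all genes.

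Adamts2, the main procollagen I amino-propeptidase, held 3 intronic sites that were present in all 6 replicates. The site 20.5 kb into the gene had 8.24, 6.43 and 4.92 for PBRM1 and 7.61, 8.82 and 8.44 for BRG1 (6.53 ± 1.66 and 8.29 ± 0.616, SD, n = 3 each). The site at 30.3 kb had 6.77, 4.70 and 5.74 for PBRM1 and 9.95, 5.98 and 9.32 for BRG1, and the site at 44.3 kb had 4.76, 7.71 and 5.34 and 10.2, 7.00 and 6.65. The antibodies overlapped in fold enrichment at each of them, and each exceeded the promoter site of the gene, which had 4.96, 4.86 and 3.93 for PBRM1 and 5.13, 5.33 and 5.61 for BRG1, in mean fold enrichment. In the pooled BRG1 list Adamtsl1 had the most gene-body peaks, 29, followed by Adamts2 with 22 and Adamts17 with 18. Adamtsl1 spans 914 kb, and none of its gene-body sites was present in all 6 replicates. Adamts17 had 1 such site, 187 kb into the gene, at 3.92, 4.71 and 5.00 for PBRM1 and 6.04, 4.69 and 5.16 for BRG1.

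The gene-body sites of lowest pooled BRG1 q-value among those in all 6 replicates included 2 at the ends of genes. The site at the 3′ end of Adamts13, which encodes the von Willebrand factor protease, had 11.3, 9.27 and 7.14 for PBRM1 and 10.2, 11.4 and 9.75 for BRG1, and its summit was 15 bp from a TSS of Cacfd1. The site at the 3′ end of Mmp28, which encodes epilysin, had 10.3, 8.91 and 6.26 for PBRM1 and 8.67, 8.37 and 7.25 for BRG1, and its summit was 588 bp from a TSS of 1700020L24Rik. The Adamts13 site counts as a gene-body site only through the merged region, since none of the replicate peaks there was a gene-body peak of Adamts13. Of the 209 gene-body sites, 35 were nearer to a TSS of another gene, at a median of 22028 bp, and 5 of these were within 2000 bp of it.

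The following sites were chosen after their values were seen. An intronic site 156 kb into Adamts9, an aggrecanase with a role in vessels and organ shape, was listed in the 3 BRG1 replicates at 6.89, 8.87 and 10.2 (8.66 ± 1.67, SD, n = 3) and in no PBRM1 list, the pooled one included. An exonic site 14.9 kb into Mmp25, which encodes the neutrophil enzyme leukolysin, had 4.53, 3.81 and 4.06 for PBRM1 and 8.43, 10.6 and 7.66 for BRG1 (4.14 ± 0.365 and 8.88 ± 1.50, SD, n = 3 each), without overlap. A promoter site given to Mmp11 through a TSS near its 3′ end had its summit 96 bp from a TSS of Smarcb1, which encodes a SWI/SNF subunit, and Mmp11 kept a promoter peak in all 6 replicates without it.

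**Figure D5:**
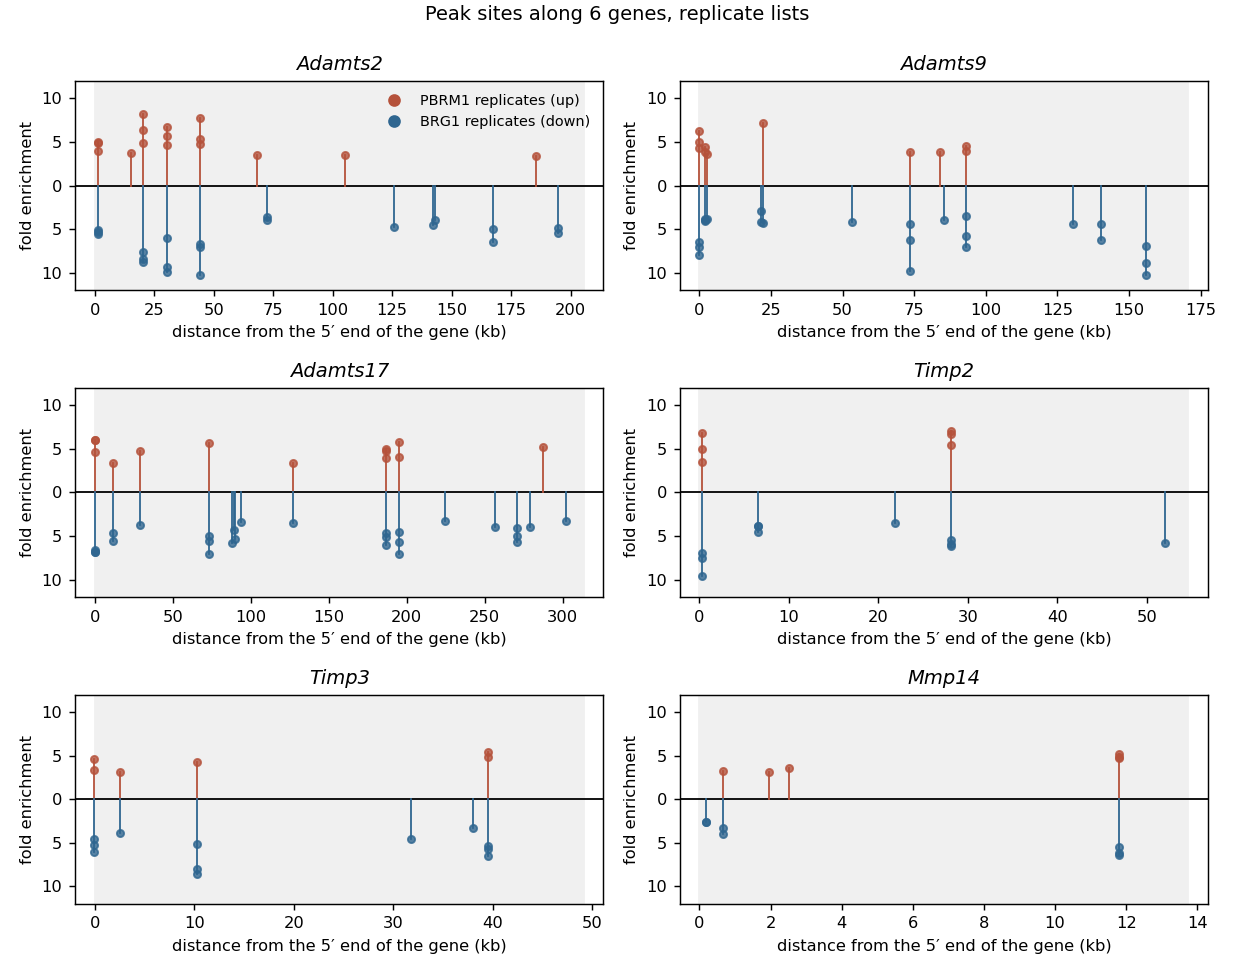
Peak sites of 6 members in the replicate lists against the distance from the 5′ end of the gene in kb, with PBRM1 fold enrichment upward and BRG1 downward. Each dot is 1 replicate and the grey band is the gene. In Adamts2 the sites at 20.5, 30.3 and 44.3 kb carried dots of all 6 replicates, and in Adamts9 the site at 156 kb carried BRG1 dots only.

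The DNA at 4 of these sites is shown, as 200 bases of the plus strand of GRCm38.p6 centred on the pooled BRG1 summit, because the Adamts2 and Mmp14 sites were present in all 6 replicates and the other 2 in all 3 BRG1 replicates without equal PBRM1 support. Capitals mark the same 3 motifs.
Adamts2 intron, chr11:50622469-50622668: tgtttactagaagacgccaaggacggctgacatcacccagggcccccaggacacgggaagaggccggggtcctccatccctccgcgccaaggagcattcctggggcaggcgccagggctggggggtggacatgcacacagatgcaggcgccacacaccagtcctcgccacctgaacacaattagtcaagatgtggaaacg
Mmp14 intron, chr14:54443301-54443500: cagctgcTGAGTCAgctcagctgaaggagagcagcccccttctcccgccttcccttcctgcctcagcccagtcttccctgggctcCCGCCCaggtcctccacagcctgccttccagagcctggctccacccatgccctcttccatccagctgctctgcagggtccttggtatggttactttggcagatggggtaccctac
Adamts9 intron, chr6:92787412-92787611: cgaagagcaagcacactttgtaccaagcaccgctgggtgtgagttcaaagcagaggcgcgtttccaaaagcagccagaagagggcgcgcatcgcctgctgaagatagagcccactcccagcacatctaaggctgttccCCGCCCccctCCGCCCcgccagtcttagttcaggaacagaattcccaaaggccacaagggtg
Between Mmp27 and Mmp20, chr9:7595289-7595488: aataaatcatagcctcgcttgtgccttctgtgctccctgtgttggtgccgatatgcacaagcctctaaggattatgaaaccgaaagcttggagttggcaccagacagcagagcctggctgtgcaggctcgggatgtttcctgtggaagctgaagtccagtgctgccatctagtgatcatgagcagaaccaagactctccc

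TGANTCA stood in the Mmp14 window and in none of the other 3. In windows of 300 bases around the summit it was found at 28 of the 209 gene-body sites of members (13.4%), beside 13.9% of all pooled BRG1 gene-body peaks, and GGGCGG at 23 (11.0%), beside 12.8%.

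The other genes of matrix proteolysis were read from lists of their own. Of 8 activators of matrix proteases, such as Plau, Furin and Bsg, 5 had a promoter peak in all 6 replicates and 7 in all 3 BRG1 replicates. Of 8 other protease inhibitors, 3 had one in all 6 (Serpine2, Cst3 and Reck) and 6 in all 3 BRG1 replicates. Reck, a membrane-anchored MMP inhibitor, had 7.94, 5.78 and 3.76 for PBRM1 and 9.09, 7.47 and 8.94 for BRG1. Of 13 other metalloproteases, 6 had one in all 6 replicates (Adam8, Adam9, Adam10, Adam15, Adam17 and Adam19), and 2 meprin genes, Mep1a and Mep1b, had none in any list. Of 8 cysteine and serine proteases 5 had one in all 6 replicates. Of 12 substrates and cofactors, such as Fn1, Vcan and Lox, 7 had one in all 6 replicates. Over all protein-coding genes the shares were 53.5% in all 6 and 62.9% in all 3 BRG1 replicates. These lists hold 8 to 13 genes each, and their counts were not tested against these shares.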

How the data were processed

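ChIC-Seq peak lists of 3 PBRM1 and 3 BRG1 replicates and 1 pooled list per antibody were read. Reads were trimmed by the authors with cutadapt and mapped to mm10 with Bowtie2, and pairs with a mapping quality of at least 20 were kept without duplicates (Picard). Fragments then went into MACS 2.2.7.1, which compared each region with the 10000 bp around it, since no control was supplied, and listed it at a q-value under 0.05. The deposited pileup signal is the fragment coverage at the summit in its own library. The deposited fold enrichment is the ratio of that pileup to the local background, as the authors' caller wrote it, and the deposited −log10 q-value is against the same background. These values are not scaled between libraries, and the lists give no counts for regions without a peak.

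Peaks were assigned to genes of the GENCODE annotation with pandas 2.3.3, a minimum overlap of 1 bp and a promoter distance of 2000 bp. Peaks from all lists that overlapped were merged into sites. Member counts were compared by two-sided exact permutation tests (scipy 1.17.1), and the assignment was tested on simulated data. Values in each replicate were given for the TIMPs, Mmp2, Mmp9, Mmp14, Adamts1, Adamts5, the 5 highest promoter means for each antibody among members with a peak in all 6 replicates, the 3 members with the most pooled BRG1 gene-body peaks, and the 3 strongest gene-body sites. The members and the gene lists were chosen with earlier results of these data known. Alternatives for the distance, the threshold, the TSS set, the list length and each left-out replicate were computed, and those on rank position, same site, neighbouring genes and CpG class without PBRM1 replicate 3 were chosen after seeing the data.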

Additional observations from a re-analysis of the deposited data

How the results depend on the processing

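Both differences in member counts and the difference in share kept their direction under all 16 alternatives each. The replicate block, counted among the 16, leaves the difference as it is and changes only the p-value, so it could not change the direction. The differences ranged from -11.7 to -1.33 members at promoters and from -11.2 to -1.67 in gene bodies. For the share they ranged from -14.8 to -1.37 percentage points, and all were smallest with 20000 peaks in each list. No p could fall under 0.1. Members with a promoter peak in all 6 replicates numbered 16 to 31 under 15 alternatives and 14 with a −log10 q of at least 5. Members ranked higher for BRG1 numbered 12, and 3 by position from the strongest peak. The cause was not tested. Leaving out 1 replicate gave -7.83 to -3.83 members at promoters, -11.2 to -5.67 in gene bodies, -8.64 to -2.80 points, 24 to 31 members and 12 to 16 ranked higher for BRG1.

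With the replicate number as a block (replicate block, exact sign-flip permutation, smallest p 0.25) the promoter difference was -6 (p = 0.25), the gene-body difference -8.33 (p = 0.25) and the share difference -5.56 points (p = 0.5). Same-numbered libraries did not deviate together (correlations of -0.0175, -0.00456 and 0.00366 over 11134 genes), so the block was not used for the values above, and whether the numbers mark shared pools is not given in the labels. A missing peak is limited by depth and by the cutoff.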
